A study of Mus musculus with 12 samples.

Results

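Cyclins and cyclin-dependent kinases were followed in mouse embryonic fibroblasts with or without the long noncoding RNA lincRNA-p21, before and after DNA damage. They were taken by name, as every gene whose symbol begins with Ccn and a further letter or with Cdk and a digit, except Ccng1. The rule gave 42 genes of the 11481 measured, 40 of them in the mock cells, 41 in the doxorubicin-treated cells and 39 in both. By known role, 5 act in S phase and mitosis, 7 in G1, 12 in transcription and RNA processing, and 11 are other cyclins and kinases. The other 7 carry such a name only because they bind a cyclin or a kinase. Ccnb2 was analysed in mock cells alone, and Ccno and Cdk5r1 after doxorubicin alone. A further 5 kinases are listed under older symbols that the rule does not take in, Cdk1 (as Cdc2a), Cdk11b (Cdc2l1), Cdk12 (Crkrs), Cdk14 (Pftk1) and Cdk16 (Pctk1), and their values are given apart.

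Poly(A) RNA was sequenced with strand information in 12 libraries of primary fibroblasts on a hybrid 129/B6 background. The cells were wild type (WT, lincRNA-p21+/+) or knockout (KO, lincRNA-p21-/-), and of each genotype 3 replicates were mock treated and 3 received doxorubicin for 24 hours. The labelled dose is 0.5 mM, a unit that is in doubt, since micromolar doses are usual for this anthracycline, which damages DNA. How the knockout was made, and whether the replicates of a genotype came from separate embryos, is not given in the sources used here, so p-values measure the spread between these libraries. LincRNA-p21 itself was not analysed here, and the genotype labels were thus not checked against it.

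Values are CPM, the counts of a gene scaled to the total of its library, from totals of 14327048 to 20511907 reads. They are not scaled to gene length, so levels are compared between libraries and not between genes. The tables hold genes with more than 2 CPM in each WT library of a treatment. A member low in WT but present in KO was thus not analysed here. A gene that fell to 2 CPM or less in any WT doxorubicin library is likewise missing from the responses to doxorubicin. Of 10 fibroblast markers, 9 were measured, with a summed level of 46811 to 64097 CPM in mock and 29550 to 39926 CPM after doxorubicin, and Lum was not among them. Doxorubicin lowered 4 of the 9 in WT and 3 in KO, where 21.4% and 14.6% of all genes were lower. The medians of the 9 markers were -1.29 and -1.19 on the log2 scale. Of 6 lists for other cell types, 1 to 4 markers each were listed. Their defining markers Ptprc, Pecam1, Cdh5, Epcam, Myod1, Myog, Adipoq, Sox2 and Sox10 were not listed in either treatment. Of their 11 markers measured in both treatments, 6 rose with doxorubicin in WT and 3 in KO, and 0 fell in the fit without a block. Of all genes 25.9% rose in WT and 19.9% in KO in that fit. The 3 markers called in both genotypes were Kdr (2.61 and 2.47), Krt19 (3.55 and 3.17) and Cebpa (3.77 and 2.33). With the replicate number as a block, 7 of 14 were lower in KO against WT after doxorubicin and 0 higher. Of all genes 13.6% were lower and 11.8% higher. Among the lower markers were Des (-1.41) and Acta1 (-1.39) of skeletal muscle and Lpl (-1.10) and Cebpa (-0.93) of adipocytes. The part of these shifts in the results on cyclins and CDKs was not tested. Replicate 2 had the highest summed level of proliferation markers in every group, 1425 CPM against 961 and 994 CPM in WT mock, 1966 against 1306 and 1114 CPM in KO mock, 926 against 349 and 415 CPM in WT doxorubicin and 477 against 311 and 309.7 CPM in KO doxorubicin (18 markers in mock, 17 after doxorubicin). Calls of members that rest on the WT doxorubicin library of replicate 2 are also given without it.

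Cyclins are regulatory subunits that switch on cyclin-dependent kinases (CDKs), and their own levels rise and fall through the cell cycle. D-type cyclins with Cdk4 or Cdk6, then E-type cyclins with Cdk2, phosphorylate the retinoblastoma protein and release E2F, which allows entry into S phase. Cyclin A with Cdk2 or Cdk1 drives replication, and B-type cyclins with Cdk1 drive mitosis. A separate branch of the family acts on RNA polymerase II, and it includes Cdk7 and Ccnh of the CDK-activating kinase. DNA damage stops the cycle through p53 and its target Cdkn1a, which encodes the CDK inhibitor p21, and p53 lowers many cell cycle genes through the DREAM complex, which binds their promoters at CHR elements and works beside CCAAT boxes bound by NF-Y.

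Promoter sequence is shown for 3 cyclins of the S phase and mitosis group, for the mitotic kinase Cdk1 and for Cdk2ap2. Of all members, Cdk2ap2 had the largest rise with doxorubicin in either genotype. Each stretch runs from 150 bases before to 15 bases after the RefSeq start of transcription in build GRCm38.p6, written 5′ to 3′ on the strand of the gene. Capitals mark TTTGAA, a form of the CHR element, and CCAAT, each searched on both strands, so that ATTGG is CCAAT on the other strand. Other forms of the CHR element were not searched, so Ccnb1, with no TTTGAA, is not shown to lack one.
Ccnb1, chr13:100786472-100786636, minus strand: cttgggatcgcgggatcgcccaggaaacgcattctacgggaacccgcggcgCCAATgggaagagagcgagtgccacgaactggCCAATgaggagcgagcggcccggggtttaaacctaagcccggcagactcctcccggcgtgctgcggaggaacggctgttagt
Ccnb2, chr9:70421540-70421704, minus strand: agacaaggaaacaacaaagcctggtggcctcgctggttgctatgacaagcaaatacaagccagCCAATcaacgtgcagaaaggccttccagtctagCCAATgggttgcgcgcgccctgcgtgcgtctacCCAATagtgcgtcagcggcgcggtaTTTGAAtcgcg
Ccnf, chr17:24251395-24251559, minus strand: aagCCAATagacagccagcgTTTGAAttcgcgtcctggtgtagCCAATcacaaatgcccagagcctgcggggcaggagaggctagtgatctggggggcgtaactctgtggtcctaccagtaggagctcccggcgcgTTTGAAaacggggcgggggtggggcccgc
Cdk1, chr10:69352898-69353062, minus strand: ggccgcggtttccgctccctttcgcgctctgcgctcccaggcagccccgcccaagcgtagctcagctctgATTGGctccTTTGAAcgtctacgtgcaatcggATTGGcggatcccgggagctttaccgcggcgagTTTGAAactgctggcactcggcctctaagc
Cdk2ap2, chr19:4097201-4097365, plus strand: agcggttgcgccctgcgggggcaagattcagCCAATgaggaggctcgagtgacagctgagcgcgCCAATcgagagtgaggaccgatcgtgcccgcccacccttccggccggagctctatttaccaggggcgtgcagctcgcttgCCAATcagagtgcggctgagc

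A window of 300 bases, 250 before and 50 after the start, was on hand for 32 of the 42 members. In these windows TTTGAA occurred at least once for 5 members and at least 2 times for 3, Ccnb2, Ccnf and Ccni, against 17.9% and 2.31% of all 32851 mouse promoter windows of that length. CCAAT occurred for 17 members, 9 of them with at least 2, against 37.4% and 11.7% of all windows. Both motifs were present for 2 members, Ccnb2 and Ccnf, against 6.95% of all windows. The 2 motifs can overlap by no more than 1 base, and a match describes the sequence and is not a bound site.

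Doxorubicin changed about as large a share of the cyclins and CDKs as of all genes, and it did so in both directions. In WT cells 10 of 39 members rose and 9 fell (limma on log2(CPM + 1), Benjamini-Hochberg adjusted p under 0.05), while 47.3% of all 10292 genes were called, 25.9% higher and 21.4% lower. The split was 7 higher and 12 lower with median centring, where 21.4% of all genes were higher and 28.6% lower, and 8 and 11 with quantile normalization, where 22.4% and 26.9% were. In KO cells 7 rose and 8 fell, against 34.5% of all genes, 19.9% higher and 14.6% lower. There median centring and quantile normalization gave 6 and 10 (16.2% and 19.7% of all genes) and 6 and 9 (17.8% and 18%). With the replicate number as a block, the counts were 12 and 12 in WT, where 63.7% of all genes were called (33.6% higher, 30.1% lower), and 9 and 13 in KO, where 53.7% were (29.6% higher, 24% lower). Treated and mock ranges did not overlap for 11 members higher and 11 lower in WT, against 54.8% of all genes (29.4% and 25.3%), and for 9 and 8 in KO, against 48.6% (27.1% and 21.5%). The median difference of the members was -0.12 in WT and -0.05 in KO on the log2 scale, beside 0.01 and 0.04 over all genes. Median centring brought the WT median of all genes to -0.10, and changes are given on the deposited scale.

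The members called in both genotypes were 6 higher (Ccndbp1, Ccng2, Ccnl1, Cdk18, Cdk2ap2 and Cdk9) and 6 lower (Ccne1, Ccnyl1, Cdk2, Cdk4, Cdk5rap2 and Cdk8). Of the 39 members, 32 had the same sign in WT and KO. The share of all genes with the same sign was not computed, so this is not shown to be particular to the members. Because a lower level in bulk RNA can come from fewer cells of a kind or from less RNA per cell, the 2 cannot be told apart here.

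**Figure D1:**
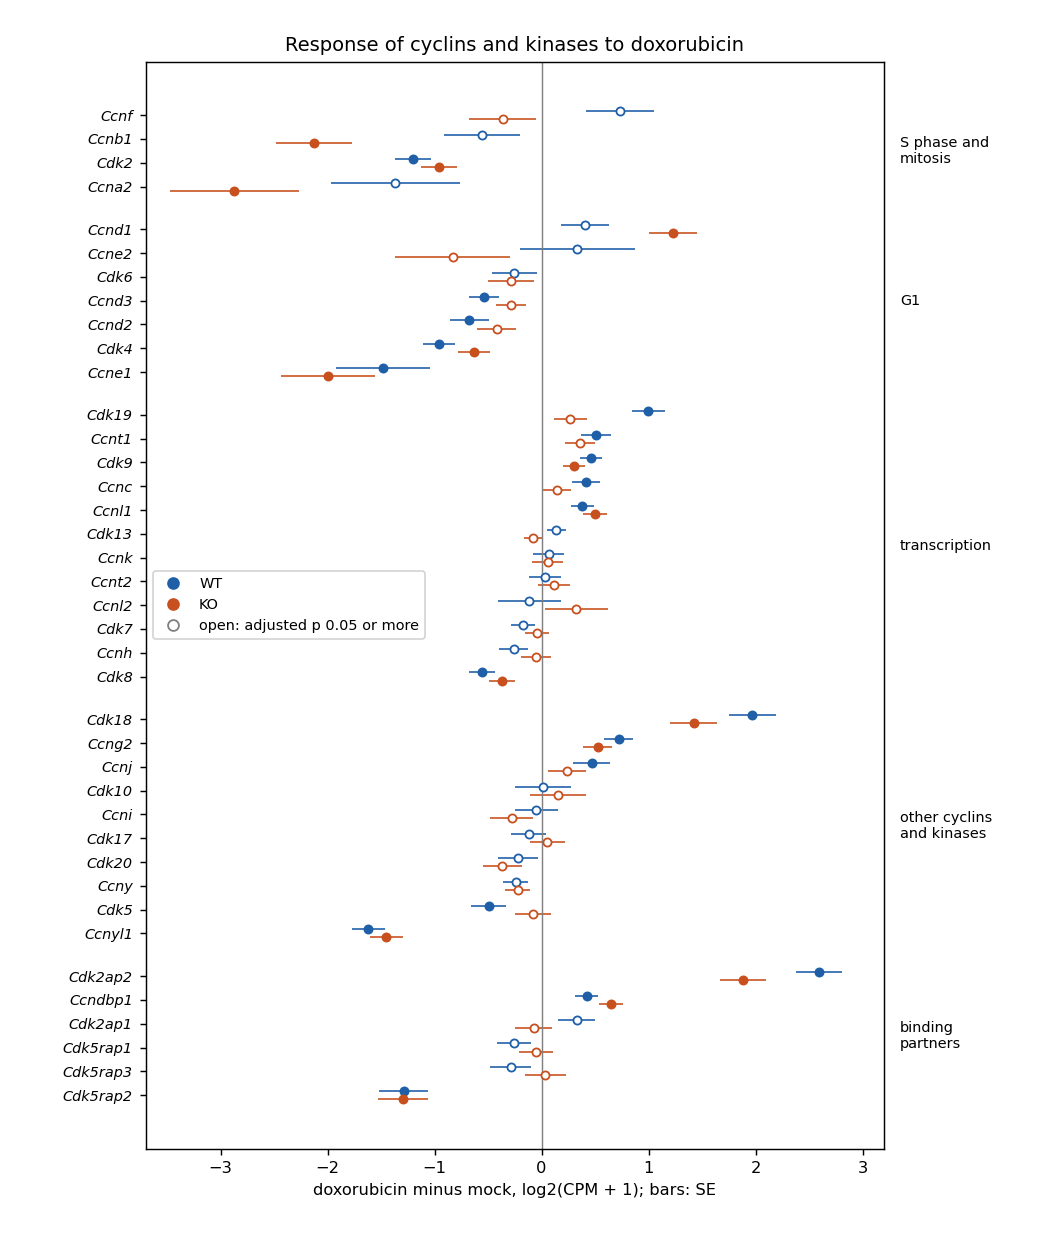
Doxorubicin minus mock for the 39 members measured in both treatments, on the log2(CPM + 1) scale, in WT (blue) and KO (orange), grouped by role. Points are limma estimates from 3 libraries a group, bars are standard errors, and open points had an adjusted p of 0.05 or more. Cdk2ap2 and Cdk18 lie farthest to the right, and Ccna2 and Ccnb1 of KO cells farthest to the left.

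Among the genes of S phase and mitosis, Cdk2 fell in both genotypes, whereas Ccna2 and Ccnb1 fell in KO and passed in WT only under some settings or not at all. Ccna2, which encodes cyclin A2 of S phase and early mitosis, was at 58.6, 90.7 and 55.5 CPM in the 3 WT mock libraries and 10.8, 78.0 and 18.4 CPM in the WT doxorubicin libraries. The KO libraries were at 80.6, 137 and 67.9 CPM in mock and 7.93, 21.7 and 8.82 CPM after doxorubicin. Every KO doxorubicin library lay below every KO mock library, while in WT the replicate 2 library stayed within the mock range. The difference was -2.87 in KO (SE 0.60, limma adjusted p = 0.00416) and -1.37 in WT (SE 0.60, adjusted p = 0.0826), and in WT it passed with the block (adjusted p = 0.00324). Without WT doxorubicin replicate 2 the WT difference was -2.16 (adjusted p = 0.00317). That library also had the summed proliferation markers of 926 CPM given above, against 961 to 1425 CPM in WT mock, and their part in the result was not tested.

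Ccnb1 encodes cyclin B1, the activator of Cdk1 at mitotic entry. In KO its level went from 51.5, 68.5 and 37.5 CPM in mock to 7.17, 14.9 and 12.1 CPM after doxorubicin, a log2 difference of -2.12 (SE 0.35, adjusted p = 0.00123) with no overlap. In WT it was at 30.01, 43.5 and 29.6 CPM in mock and 12.7, 31.6 and 28.5 CPM after doxorubicin, and the groups overlapped (difference -0.56, SE 0.35, adjusted p = 0.215, and 0.0554 with the block). Only replicate 1 of the WT doxorubicin libraries was far below the mock range. Ccnb2, its close relative, was at 24.5, 32.1 and 25.9 CPM in WT mock and 33.2, 51.0 and 30.2 CPM in KO mock. Ccnb2 was not listed after doxorubicin, where genes at 2 CPM or less in any WT library are left out. Its response was therefore not measured, and a fall to that level would be missing from the counts.

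Ccnf encodes cyclin F, which binds no CDK and serves as the substrate receptor of a ubiquitin ligase in G2. In WT cells it went from 21.2, 30.6 and 25.1 CPM in mock to 31.7, 42.7 and 57.7 CPM after doxorubicin, each treated library above each mock library. That difference of 0.73 (SE 0.32) had an adjusted p of 0.0767, and it passed with the block (adjusted p = 0.0144), without WT doxorubicin replicate 1 (0.0441), without KO doxorubicin replicate 1 (0.0329) and in a fit of the 6 WT libraries alone (0.0409). In KO the levels were 29.5, 44.0 and 27.3 CPM in mock and 15.1, 29.0 and 36.6 CPM after doxorubicin, which overlapped (difference -0.36, adjusted p = 0.401).

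Cdk2, the kinase partner of cyclins E and A, was at 27.2, 29.1 and 27.8 CPM in WT mock and 13.0, 13.6 and 8.74 CPM in WT doxorubicin libraries. The KO values were 31.2, 32.4 and 26.6 CPM in mock and 16.6, 15.3 and 13.2 CPM after doxorubicin. The treated libraries of both genotypes were all below the mock libraries, and Cdk2 fell, with log2 differences of -1.20 in WT (SE 0.17, adjusted p = 0.000217) and -0.96 in KO (SE 0.17, adjusted p = 0.00154). Cdk1, the mitotic kinase, is listed as Cdc2a and was at 63.0, 90.6 and 61.0 CPM in WT mock, 11.2, 35.5 and 9.02 CPM in WT doxorubicin, 87.4, 132 and 67.3 CPM in KO mock and 14.5, 16.4 and 7.44 CPM in KO doxorubicin. It fell, with log2 differences of -2.11 in WT (adjusted p = 0.00292) and -2.82 in KO (adjusted p = 0.000985). As for Ccna2, the highest treated WT library was replicate 2.

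**Figure D2:**
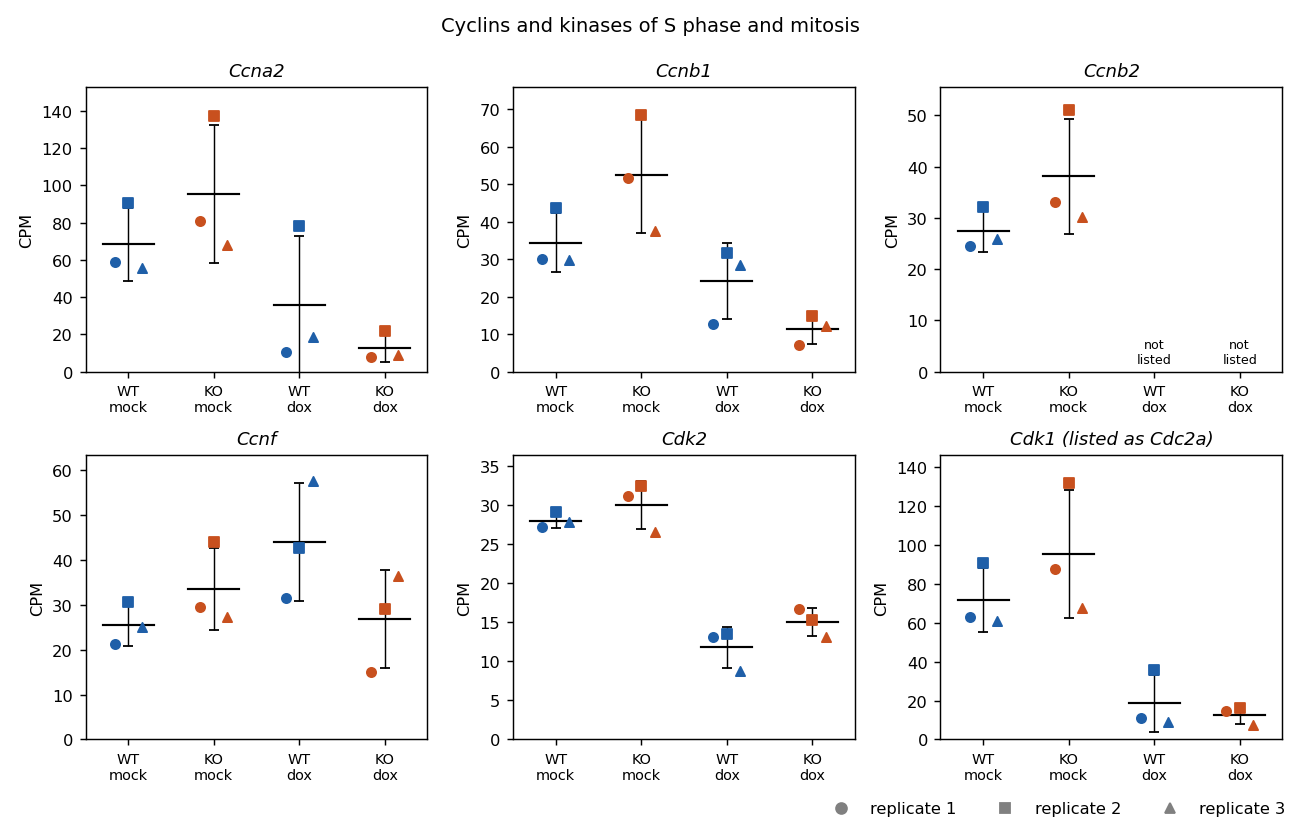
CPM of the 5 members of S phase and mitosis and of Cdk1 in each library (circle, square and triangle for replicates 1, 2 and 3), with the mean (line) and SD (bar) of each group of 3. The WT doxorubicin square of Ccna2, at 78.0 CPM, lies near the mock libraries, whereas the other 2 lie at 10.8 and 18.4 CPM. Lower ends of SD bars that pass below 0 are not drawn.

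In G1 the cyclins did not move as one. Ccnd1, which encodes cyclin D1, a mitogen-induced partner of Cdk4 and Cdk6, was the only G1 member called higher, and only in KO without the block. Its KO libraries were at 275, 358 and 332 CPM in mock and 751, 713 and 793 CPM after doxorubicin, so that every treated library had more than any mock library. The rise was 1.23 (SE 0.22, adjusted p = 0.00197). The WT libraries were at 221, 246 and 419 CPM in mock and 356, 315 and 477 CPM after doxorubicin and overlapped, since replicate 3 was high in both (difference 0.41, SE 0.22, adjusted p = 0.156). Same-numbered WT libraries all went up, and the block gave an adjusted p of 0.0473. Without WT mock replicate 3 the difference was 0.69 (adjusted p = 0.0109).

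The other D-type cyclins, Ccnd2 and Ccnd3, fell in WT. Ccnd2 was at 157, 151 and 183 CPM in WT mock and 109.5, 89.8 and 107 CPM in WT doxorubicin libraries, and at 192, 148 and 169 CPM in mock and 159, 93.2 and 135 CPM after doxorubicin in KO. It fell in WT, with a difference of -0.67 (SE 0.18, adjusted p = 0.0101), whereas in KO the difference of -0.42 passed only with the block (adjusted p = 0.094 without and 0.0111 with it), with median centring (0.0495) or without KO doxorubicin replicate 1 (0.0291). Ccnd3 was at 148, 118 and 129 CPM in WT mock and 93.8, 89.8 and 86.1 CPM in WT doxorubicin, and at 131, 104 and 122 CPM in mock and 114, 80.5 and 99.8 CPM after doxorubicin in KO. Its fall, -0.54, in WT had an adjusted p of 0.00832, and its KO difference of -0.28 passed only with the block (adjusted p = 0.139 and 0.0193). For both genes the KO ranges before and after treatment overlapped and the WT ranges did not.

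Cdk4, the main kinase partner of the D cyclins in fibroblasts, was at 331, 329 and 331 CPM in WT mock and 211, 154 and 150.1 CPM in WT doxorubicin libraries. Its KO libraries had 375, 380.3 and 360.4 CPM in mock and 265, 268 and 192 CPM after doxorubicin. It fell, with log2 differences of -0.96 in WT (SE 0.15, adjusted p = 0.000452) and -0.63 in KO (SE 0.15, adjusted p = 0.00778), with no overlap in either. Cdk6, the related kinase, was at 8.79, 12.7 and 11.2 CPM in WT mock, 9.86, 9.02 and 7.85 CPM in WT doxorubicin, 14.3, 12.8 and 7.72 CPM in KO mock and 9.98, 8.57 and 8.67 CPM in KO doxorubicin, which overlapped in both genotypes. Its differences of -0.26 and -0.29 (SE 0.21) did not pass.

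Ccne1 and Ccne2 encode the E-type cyclins that activate Cdk2 at the start of S phase, and the first fell in both genotypes. Ccne1 was at 36.1, 42.2 and 33.2 CPM in WT mock and 7.70, 32.1 and 7.68 CPM in WT doxorubicin, where replicate 2 was again the high library. KO libraries were at 36.2, 45.7 and 27.1 CPM before and 9.21, 9.89 and 5.86 CPM after treatment. The log2 difference was -1.48 in WT (SE 0.44, adjusted p = 0.0164) and -2.00 in KO (SE 0.44, adjusted p = 0.00525). The WT call was lost without WT mock replicate 2 (adjusted p = 0.0506), WT doxorubicin replicate 1 (0.0633) or WT doxorubicin replicate 3 (0.0711), and without WT doxorubicin replicate 2 the difference was -2.13. Ccne2 was at 13.0, 21.3 and 15.7 CPM in WT mock, 8.19, 36.1 and 29.7 CPM in WT doxorubicin, 14.3, 28.9 and 13.9 CPM in KO mock and 4.54, 15.3 and 12.5 CPM in KO doxorubicin. The WT libraries of replicates 2 and 3 were higher after treatment and that of replicate 1 lower, and no call was made (difference 0.34, adjusted p = 0.629). In KO each same-numbered library was lower, and the difference of -0.83 passed only with the block (adjusted p = 0.0334).

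**Figure D3:**
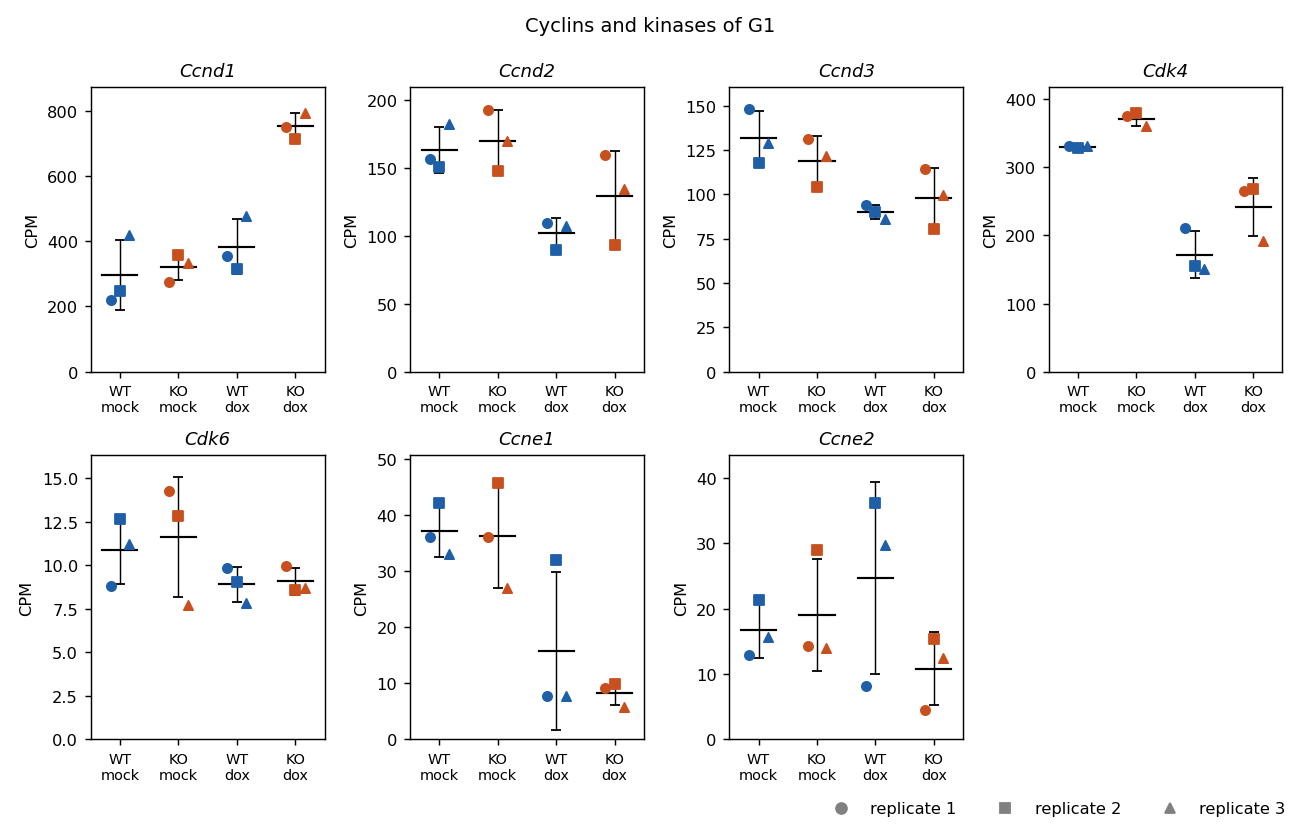
CPM of the 7 G1 members in each library (circle, square and triangle for replicates 1, 2 and 3), with the mean (line) and SD (bar) of each group of 3. The 3 KO doxorubicin libraries of Ccnd1, at 713 to 793 CPM, lie above the other 9 libraries, and Cdk4 lies lower after treatment in both genotypes.

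The 12 members of the transcriptional branch gave 5 calls higher and 1 lower in WT (3 and 3 with median centring, 3 and 2 with quantile normalization) and 2 and 1 in KO (1 and 1 with either scaling). Cdk9 and Ccnt1 encode the kinase and the cyclin of P-TEFb, which releases paused RNA polymerase II. Cdk9 was at 103, 91.0 and 89.5 CPM in WT mock, 126, 132 and 134 CPM in WT doxorubicin, 112, 88.7 and 93.9 CPM in KO mock and 119, 123 and 121 CPM in KO doxorubicin, with the treated libraries above the mock ones in both genotypes. It rose by 0.47 in WT (SE 0.10, adjusted p = 0.00323) and 0.30 in KO (SE 0.10, adjusted p = 0.0367). The KO call was lost with quantile normalization (0.113), with median centring (0.108), in a fit of the KO libraries alone (0.0876), without WT mock replicate 2 (0.0501), and without any of 5 of the 6 KO libraries, all but mock replicate 1 (0.0681 to 0.133).

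Ccnt1 was at 16.7, 16.9 and 15.2 CPM in WT mock and 22.6, 25.9 and 22.3 CPM in WT doxorubicin, a rise of 0.51 (SE 0.14, adjusted p = 0.0116). In KO it was at 19.9, 18.2 and 14.1 CPM in mock and 23.7, 22.5 and 21.1 CPM after doxorubicin, where the ranges did not overlap but the difference of 0.36 passed only with the block (adjusted p = 0.0669 and 0.0167) or without KO mock replicate 1 (0.0487). Ccnl1, which encodes cyclin L1 of the splicing machinery, was at 69.9, 68.5 and 65.8 CPM in WT mock, 95.2, 82.4 and 89.96 CPM in WT doxorubicin, 63.1, 56.2 and 73.8 CPM in KO mock and 95.1, 83.9 and 93.3 CPM in KO doxorubicin. Treated libraries lay above mock libraries in both genotypes, and Ccnl1 rose by 0.38 in WT (adjusted p = 0.0153) and 0.50 in KO (adjusted p = 0.00593). The WT call was lost with quantile normalization (0.107), with median centring (0.0598) and without WT mock replicate 3 (0.0513).

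The kinases of the Mediator complex, Cdk8 and its paralog Cdk19, went opposite ways in WT. Cdk8 was at 54.7, 66.1 and 63.6 CPM in WT mock, 44.6, 42.4 and 37.7 CPM in WT doxorubicin, 58.7, 71.1 and 59.1 CPM in KO mock and 48.2, 52.7 and 44.7 CPM in KO doxorubicin. It fell, with log2 differences of -0.55 in WT (SE 0.12, adjusted p = 0.00335) and -0.37 in KO (SE 0.12, adjusted p = 0.0362), without overlap. The KO call was lost in a fit of the KO libraries alone (0.0658) and without any of 5 of the 6 KO libraries, all but doxorubicin replicate 2 (0.0509 to 0.134). Cdk19 was at 23.1, 19.2 and 19.96 CPM in WT mock and 34.4, 53.1 and 41.5 CPM in WT doxorubicin and rose by 1.00 (SE 0.15, adjusted p = 0.000417). In KO it was at 28.8, 25.0 and 24.1 CPM in mock and 30.7, 31.0 and 32.6 CPM after doxorubicin, with no overlap and a difference of 0.27 (SE 0.15, adjusted p = 0.198) that was not called. Because paralogs share sequence, reads could be split between them in counting, which was not tested.

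Ccnc, which encodes cyclin C, the partner of both Mediator kinases, was at 29.9, 35.9 and 30.8 CPM in WT mock and 37.8, 41.8 and 50.8 CPM in WT doxorubicin and rose by 0.42 (adjusted p = 0.0214). That call was lost with quantile normalization (0.0799), with median centring (0.0870), in a fit of the WT libraries alone (0.0708) and when replicate 1 (0.0762) or 3 (0.0674) of WT mock or replicate 3 of WT doxorubicin (0.0879) was left out. In KO the levels of 35.1, 38.2 and 34.4 CPM in mock and 36.9, 39.6 and 43.0 CPM after doxorubicin overlapped. Ccnl2, the relative of Ccnl1, was at 159, 117 and 131 CPM in WT mock, 164, 88.0 and 132 CPM in WT doxorubicin, 151, 83.9 and 157 CPM in KO mock and 202, 113 and 171 CPM in KO doxorubicin. Replicate 2 was the low library in every group, and the KO difference of 0.32 passed only with the block (adjusted p = 0.0394). The remaining 5, Cdk7 and Ccnh of the CDK-activating kinase, and Ccnk, Ccnt2 and Cdk13, which act in elongation, had differences of -0.26 to 0.14 in WT and -0.08 to 0.11 in KO and gave no call with or without the block.

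Of the other cyclins and kinases, Cdk18 and Ccnyl1 had the largest rise and fall. Cdk18, a kinase of the PCTAIRE group, was at 52.8, 53.1 and 56.7 CPM in WT mock, 175, 193 and 293 CPM in WT doxorubicin, 57.4, 57.7 and 46.7 CPM in KO mock and 107, 149.7 and 193 CPM in KO doxorubicin. It rose by 1.97 in WT (SE 0.22, adjusted p = 6.92e-05) and 1.42 in KO (SE 0.22, adjusted p = 0.000808), far beyond the spread between replicates. Its relative Cdk17 ranged over 41.2 to 57.1 CPM in WT mock and 42.1 to 43.5 CPM in WT doxorubicin and was not called (difference -0.12). Ccnyl1, which encodes a relative of the membrane-bound cyclin Y, was at 178, 177 and 149.5 CPM in WT mock, 52.8, 61.6 and 48.2 CPM in WT doxorubicin, 191, 168 and 125 CPM in KO mock and 61.7, 58.7 and 52.5 CPM in KO doxorubicin. It fell, with log2 differences of -1.62 in WT (SE 0.16, adjusted p = 3.2e-05) and -1.45 in KO (SE 0.16, adjusted p = 0.000118), and the ranges were far apart in both.

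Ccng2, which encodes the unconventional cyclin G2 that is linked to growth arrest, was at 47.7, 47.8 and 47.4 CPM in WT mock, 72.7, 93.9 and 72.4 CPM in WT doxorubicin, 44.5, 42.0 and 56.7 CPM in KO mock and 65.3, 73.8 and 66.6 CPM in KO doxorubicin. It rose by 0.72 in WT (adjusted p = 0.00136) and 0.52 in KO (adjusted p = 0.0118), without overlap. Cdk5, a kinase best known from neurons, was at 50.4, 38.8 and 43.3 CPM in WT mock and 35.0, 25.1 and 33.5 CPM in WT doxorubicin and fell, with a log2 difference of -0.50 (adjusted p = 0.029). That call was lost in a fit of the WT libraries alone (0.0559) and when replicate 1 (0.109) or 3 (0.0622) of WT mock or replicate 2 of WT doxorubicin (0.104) was left out, and in KO the levels of 44.3, 33.7 and 46.5 CPM in mock and 41.0, 35.3 and 40.5 CPM after doxorubicin overlapped.

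Ccnj was at 6.91, 6.76 and 7.06 CPM in WT mock, 8.05, 12.6 and 9.63 CPM in WT doxorubicin, 8.34, 7.33 and 7.33 CPM in KO mock and 9.85, 10.5 and 7.49 CPM in KO doxorubicin. Its WT rise of 0.47 (adjusted p = 0.045) was lost with median centring (0.108), in a fit of the WT libraries alone (0.0915) and without any of 9 of the 12 libraries (0.0554 to 0.156), all but WT doxorubicin replicate 1 and KO doxorubicin replicates 2 and 3. Ccny, which encodes cyclin Y, was at 88.2, 87.7 and 89.2 CPM in WT mock and 83.0, 77.6 and 64.4 CPM in WT doxorubicin, a difference of -0.24 that passed with the block (adjusted p = 0.0301), quantile normalization (0.0172) or median centring (0.0164) and not otherwise in the full set (adjusted p = 0.106). In KO it was at 101, 102 and 92.7 CPM in mock and 93.2, 86.3 and 73.7 CPM after doxorubicin (difference -0.22, adjusted p = 0.155), and there too it passed with the block (0.048), quantile normalization (0.0473) or median centring (0.0399). Cdk20, at 5.10, 4.66 and 5.55 CPM in WT mock, 4.16, 4.19 and 4.34 CPM in WT doxorubicin, 6.81, 4.65 and 5.75 CPM in KO mock and 4.22, 5.47 and 3.10 CPM in KO doxorubicin, was not called in either genotype. Ccni was at 159, 175 and 121 CPM in WT mock, 147, 182 and 114 CPM in WT doxorubicin, 183, 181 and 137 CPM in KO mock and 149.8, 150.2 and 112 CPM in KO doxorubicin. Ccni, Cdk10 and Cdk20 had differences of -0.22 to 0.02 in WT and -0.37 to 0.15 in KO and were not called, save that Ccni was lower in KO with the block (adjusted p = 0.0111).

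The largest rise and one of the largest falls were among the genes named for binding a cyclin or kinase. Cdk2ap2, which encodes a CDK2-associated protein that is also a subunit of chromatin complexes, was at 23.0, 18.4 and 19.2 CPM in WT mock and 105, 124 and 154 CPM in WT doxorubicin. In KO it was at 25.9, 17.7 and 19.1 CPM in mock and 60.9, 75.2 and 106 CPM after doxorubicin. Each treated library was far above each mock library, and the rise was 2.59 in WT (SE 0.22, adjusted p = 1.65e-05) and 1.88 in KO (SE 0.22, adjusted p = 0.000174). Its promoter window of 300 bases held CCAAT 6 times, of which 3 fall in the stretch shown above. Cdk2ap1, its paralog, was at 21.2, 25.8 and 17.8 CPM in WT mock, 24.6, 27.7 and 29.0 CPM in WT doxorubicin, 26.3, 29.4 and 20.2 CPM in KO mock and 21.1, 26.1 and 24.1 CPM in KO doxorubicin and was not called (differences 0.33 and -0.07).

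Cdk5rap2 encodes a centrosome protein that organises microtubules. It was at 35.5, 33.7 and 30.3 CPM in WT mock, 17.5, 12.5 and 9.85 CPM in WT doxorubicin, 44.4, 45.1 and 41.8 CPM in KO mock and 25.0, 15.7 and 13.0 CPM in KO doxorubicin. It fell, with log2 differences of -1.29 in WT (SE 0.23, adjusted p = 0.00106) and -1.29 in KO (adjusted p = 0.0018), without overlap. Ccndbp1, which encodes an inhibitory binding partner of cyclin D1, was at 31.5, 30.1 and 32.7 CPM in WT mock, 46.3, 38.7 and 42.8 CPM in WT doxorubicin, 32.1, 27.2 and 30.7 CPM in KO mock and 49.97, 46.8 and 45.9 CPM in KO doxorubicin. It rose by 0.42 (adjusted p = 0.00787) and 0.65 (adjusted p = 0.0012). Cdk5rap3 was at 57.9, 42.6 and 49.7 CPM in WT mock, 51.0, 34.4 and 37.8 CPM in WT doxorubicin, 53.9, 41.1 and 57.8 CPM in KO mock and 61.9, 43.9 and 50.5 CPM in KO doxorubicin. In WT it was lower with the block (difference -0.29, adjusted p = 0.0269) and not called without it (0.237). Cdk5rap1 gave no call (difference -0.26 in WT and -0.05 in KO).

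**Figure D4:**
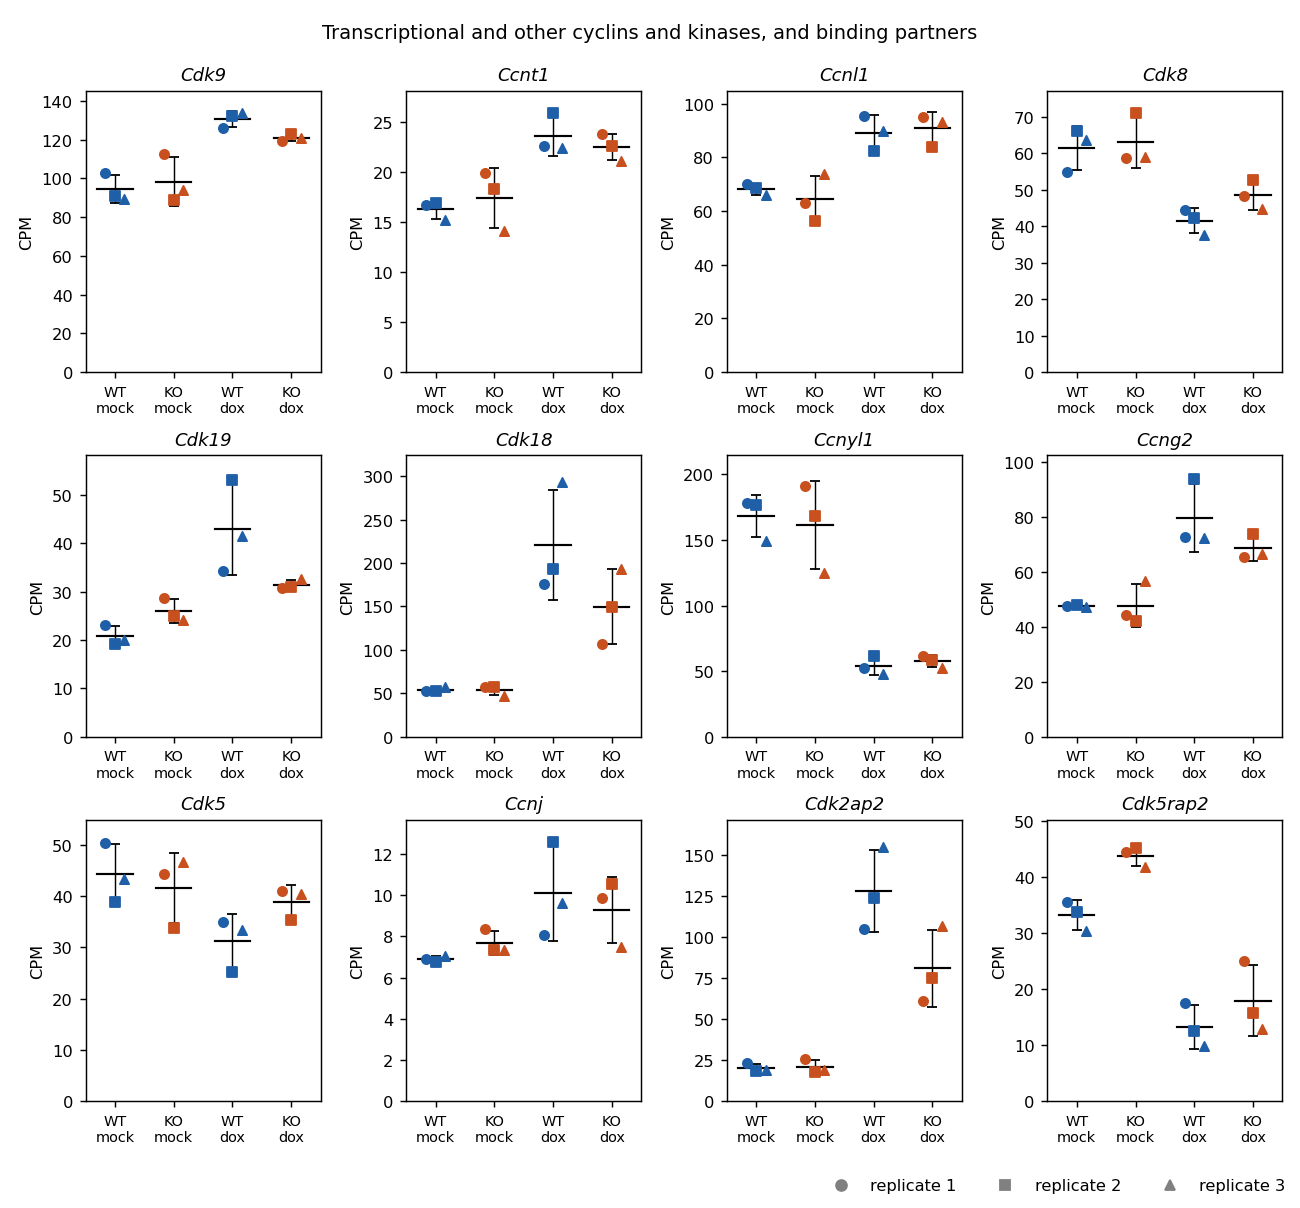
CPM of 12 members outside S phase, mitosis and G1 in each library (circle, square and triangle for replicates 1, 2 and 3), with the mean (line) and SD (bar) of each group of 3. Cdk18 and Cdk2ap2 lie higher and Ccnyl1 and Cdk5rap2 lower after doxorubicin in both genotypes, with no overlap.

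Of the kinases under older symbols other than Cdk1, Cdk16 fell, with log2 differences of -0.77 in WT (adjusted p = 0.000484) and -0.48 in KO (adjusted p = 0.0109). Its libraries were at 179, 158 and 192 CPM in WT mock, 108, 113 and 89.6 CPM in WT doxorubicin, 188, 161 and 192 CPM in KO mock and 139, 131 and 117 CPM in KO doxorubicin. It belongs to the PCTAIRE kinases like Cdk18, which rose, and Cdk17, which gave no call. Cdk14 fell, with log2 differences of -0.90 in WT (adjusted p = 0.00605) and -0.97 in KO (adjusted p = 0.00614). Cdk11b and Cdk12, kinases of splicing and elongation, had differences of -0.11 and 0.13 in WT and 0.14 and 0.14 in KO and were not called.

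The genes that act on cyclins and CDKs were taken from lists chosen with earlier results of these data known. Their counts stand beside 25.9% of all genes called higher and 21.4% lower in WT, and 19.9% and 14.6% in KO. Of 6 CDK inhibitors measured, 2 rose and 1 fell in each genotype. Cdkn1a went from 578, 506 and 613 CPM in WT mock to 1440.3, 1091 and 1248 CPM in WT doxorubicin and from 304, 283 and 357 CPM in KO mock to 1059, 1072 and 1102 CPM in KO doxorubicin. Cdkn1c, which encodes p57, rose by 2.16 in WT and 1.51 in KO, whereas Cdkn1b, which encodes p27, fell, with log2 differences of -1.06 (adjusted p = 0.00644) and -0.90 (adjusted p = 0.0199). The inhibitor genes thus did not share a direction.

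Genes that set the phosphorylation of CDKs, with the CKS subunits, gave 0 higher and 4 lower of 7 in both genotypes. The phosphatase gene Cdc25b, which activates CDKs, was at 18.3, 19.2 and 17.4 CPM in WT mock and 3.75, 4.39 and 2.62 CPM in WT doxorubicin. It fell, with log2 differences of -2.09 in WT and -2.06 in KO. Cks1b and Cks2, which encode small CDK-binding subunits, fell, with log2 differences of -1.55 and -1.08 in WT and -1.53 and -1.71 in KO, and the fourth was Wee1, an inhibitory kinase gene, with -0.93 and -1.12.

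Of 17 genes of the RB, E2F and DREAM list, 3 rose and 5 fell in WT (7 with either scaling) and 2 rose and 8 fell in KO. Rb1, which encodes the substrate of the G1 kinases, rose from 23.7, 23.5 and 28.7 CPM in WT mock to 118, 113 and 163 CPM in WT doxorubicin (2.32, and 1.64 in KO), and its relative Rbl2 rose by 1.57 and 1.04. Mybl2 and Foxm1, activators of mitotic cyclin genes, fell, with log2 differences of -1.30 and -1.07 in WT and -2.48 and -2.05 in KO. Mybl2 was highest in replicate 2 among the treated WT libraries (3.40, 13.3 and 5.29 CPM), as Ccna2 and Ccne1 were.

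Among 24 genes of cyclin destruction, 5 rose and 13 fell in each genotype. The lowest difference was that of Ube2c, an E2 enzyme of the anaphase-promoting complex, which fell, with log2 differences of -2.86 in WT and -3.46 in KO. Skp2, a receptor of the SCF ligase, fell, with log2 differences of -1.45 and -1.11, Fbxw7, the SCF receptor for cyclin E, rose by 1.24 and 1.02, and Cdc20, an activator of the anaphase-promoting complex, fell, with a log2 difference of -1.96 in KO. Of 16 partners of the transcriptional CDKs, 6 rose and 2 fell in WT (5 and 4 with median centring, 5 and 3 with quantile normalization) and 5 and 2 in KO. Supt4h1 and Supt5h, which encode the DSIF factor that P-TEFb acts on, rose by 1.16 and 0.80 in WT and 0.89 and 0.63 in KO, and Polr2a, which encodes the large subunit of RNA polymerase II, by 0.80 and 0.47. Of 17 proliferation markers, 1 rose and 13 fell in WT and 0 rose and 15 fell in KO, with medians of -1.72 and -2.46. Top2a, Mcm5 and Mki67, genes of replication and dividing cells, led in WT (-3.75, -2.38 and -2.31), and Top2a, Mki67 and the mitotic kinase gene Plk1 in KO (-3.97, -3.61 and -3.34).

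KO was then compared with WT in mock cells, which asks whether these genes differ between the genotypes without doxorubicin. No member of 40 was called, with or without the block. Over all 10648 genes limma called 0 (0%) without the block and 0.92% with it, 0.563% higher and 0.357% lower. At an unadjusted p under 0.05 there were 2 members, Cdk19 and Cdk5rap2, and 440 genes. Of the 40 members, 28 lay above WT (23 with quantile normalization and 20 with median centring), with a median of 0.07 beside 0.06 over all genes. On the deposited scale 7093 of the 10648 genes lay above WT. In 6 members every KO library was above every WT library and in 0 below, against 9.98% of all genes, 8.25% above and 1.74% below.

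Those 6 were Cdk4, Cdk19, Cdk13, Ccnj, Ccny and Cdk5rap2. Cdk5rap2 had the smallest unadjusted p of them, 0.39 above WT (SE 0.10), but it did not pass (adjusted p = 0.978, or 0.0613 when blocked). The mock levels of Cdk4, 331, 329 and 331 CPM in WT and 375, 380.3 and 360.4 CPM in KO, differed by 0.17. All 5 members of S phase and mitosis lay above WT, also with either scaling, by 0.09 (Cdk2), 0.36 (Ccnf), 0.43 (Ccnb2), 0.44 (Ccna2) and 0.58 (Ccnb1). For Ccna2, Ccnb1, Ccnb2 and Ccnf the KO library was above the WT library of the same number in all 3 pairs. With the block their adjusted p were 0.0622, 0.0641, 0.100 and 0.124. Leaving out pair 3 with the block gave 9 members higher and 2 lower, among them these 4 (limma adjusted p = 0.00185, 0.000965, 0.00573 and 0.00531). Leaving out pair 1 or 2 gave 0. The share of all genes called was not computed for these fits, so the counts are not shown to be particular to the members. The 18 proliferation markers lay above WT in all 18 cases, with a median of 0.34, where 7093 of all 10648 genes lay above WT. Their summed levels were 1114 to 1966 CPM in KO against 961 to 1425 CPM in WT. The part of these markers in the cyclin values was not tested.

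After doxorubicin, members were called in KO against WT only with the block, at a share near that of all genes. Among those called, KO had more Ccnd1 and Cdk4 and less Ccna2, Ccnb1, Ccne2 and Ccnf, and the others called are given below. Without the block no member of 41 was called, nor was any gene (0% of 11125), and 4 members, Ccnd1, Cdk2ap2, Cdk4 and Ccnb1, had an unadjusted p under 0.05, against 1246 of all genes. With the block 5 members were higher and 7 lower (25.3% of all genes), 11.8% of all genes being higher and 13.6% lower. The counts were 4 and 8 with quantile normalization or median centring. All 12 had one direction in all 3 pairs, which a choice by a fit on these pairs favours. Of the 41 members, 16 were higher in all 3 pairs and 13 lower in all 3, and the share of all genes that did so was not computed. Without pair 1, 2 or 3 the counts were 1 and 6, 5 and 7, and 2 and 7. For the blocked fits with scaling or with a pair left out, the share of all genes called was not computed. Their counts are thus not shown to be particular to the members.

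Ccnd1 had the smallest adjusted p of the 12 with the block. It was at 356, 315 and 477 CPM in the WT doxorubicin libraries and 751, 713 and 793 CPM in the KO libraries, with no overlap. The difference was 1.00 (SE 0.17, limma adjusted p = 0.381, and 0.0044 with the block). Cdk4, at 211, 154 and 150.1 CPM in WT and 265, 268 and 192 CPM in KO, was 0.49 higher (SE 0.19, adjusted p = 0.443, and 0.0182 with the block), and its ranges overlapped because replicate 3 of KO was below replicate 1 of WT. Without pair 1 the Cdk4 call was lost (adjusted p = 0.0562 with the block).

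Ccna2, Ccnb1 and Ccnf were lower in KO with the block. Ccnb1 was at 12.7, 31.6 and 28.5 CPM in WT and 7.17, 14.9 and 12.1 CPM in KO, which differed by -0.98 (SE 0.39; adjusted p without the block 0.443, with it 0.00607). Ccnf, at 31.7, 42.7 and 57.7 CPM in WT and 15.1, 29.0 and 36.6 CPM in KO, differed by -0.74 (adjusted p = 0.443 and 0.00869). Ccna2, at 10.8, 78.0 and 18.4 CPM in WT and 7.93, 21.7 and 8.82 CPM in KO, differed by -1.06 (SE 0.69, adjusted p = 0.504 and 0.0231). Without WT doxorubicin replicate 2 and with no block, the Ccna2 difference was -0.27 and that of Ccnb1 -0.75. Without pair 2 and with the block, they were -0.69 and -0.96 (adjusted p = 0.0389 and 0.0105). Cdk1 had no such difference that passed, with -0.32 (adjusted p = 0.766, and 0.344 with the block), nor had Cdk2, which was 0.34 higher in KO (0.501 and 0.0885).

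Ccne2, at 8.19, 36.1 and 29.7 CPM in WT and 4.54, 15.3 and 12.5 CPM in KO, differed by -1.03 (SE 0.60, adjusted p = 0.473, and 0.00637 with the block). In each pair the KO library was lower, while replicate 1 was the lowest library of both genotypes. Without WT doxorubicin replicate 2 the difference was -0.65. Ccne1 was not called (-0.57, adjusted p = 0.607 and 0.205), with only replicate 2 of WT far above the rest. Ccno, a cyclin known from multiciliated cells, was at 8.61, 16.3 and 22.2 CPM in WT and 2.30, 8.57 and 11.6 CPM in KO and differed by -1.09 (adjusted p = 0.444 and 0.00808).

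Of the members that rose with doxorubicin, Cdk18 and Cdk2ap2 were lower in KO with the block, with differences of -0.56 (adjusted p = 0.443 and 0.00758) and -0.67 (adjusted p = 0.443 and 0.00489). The Cdk18 call was lost without pair 1 (0.0546). Cdk2ap2 was below WT in each pair, from 105, 124 and 154 CPM in WT to 60.9, 75.2 and 106 CPM in KO. Cdk5rap2, Cdk5rap3 and Ccnl2 were higher in KO with the block, by 0.39, 0.34 and 0.34 (adjusted p = 0.048, 0.0282 and 0.0147). Cdk5rap2 was called only with all 3 pairs (0.195, 0.0572 and 0.168 without pair 1, 2 or 3). Cdk5rap3 passed only without pair 2 (0.0372) and not without pair 1 (0.0982) or pair 3 (0.162), as did Ccnl2 (0.0172, 0.0755 and 0.0732).

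Ranges that did not overlap placed Ccnd1, Cdk17, Cdk5, Cdk8 and Ccnh higher in KO and Cdk19 and Cdk9 lower, against 16.3% of all genes, 9.7% higher and 6.64% lower. Cdk19 was at 34.4, 53.1 and 41.5 CPM in WT and 30.7, 31.0 and 32.6 CPM in KO, a difference of -0.42 (adjusted p = 0.443, and 0.0518 with the block). Cdk5, at 35.0, 25.1 and 33.5 CPM in WT and 41.0, 35.3 and 40.5 CPM in KO, differed by 0.32 (0.458 and 0.0503). Cdk17, Cdk8, Ccnh and Cdk9 differed by 0.29, 0.22, 0.30 and -0.11 and were not called with or without the block. Cdk5r1, which encodes the p35 activator of Cdk5, was at 3.05, 6.14 and 5.85 CPM in WT and 2.75, 4.52 and 4.14 CPM in KO after doxorubicin and was not called (-0.30). Cdk16, among the kinases under older symbols, was higher in KO by 0.32 with the block (adjusted p = 0.0234), and its ranges did not overlap.

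**Figure D5:**
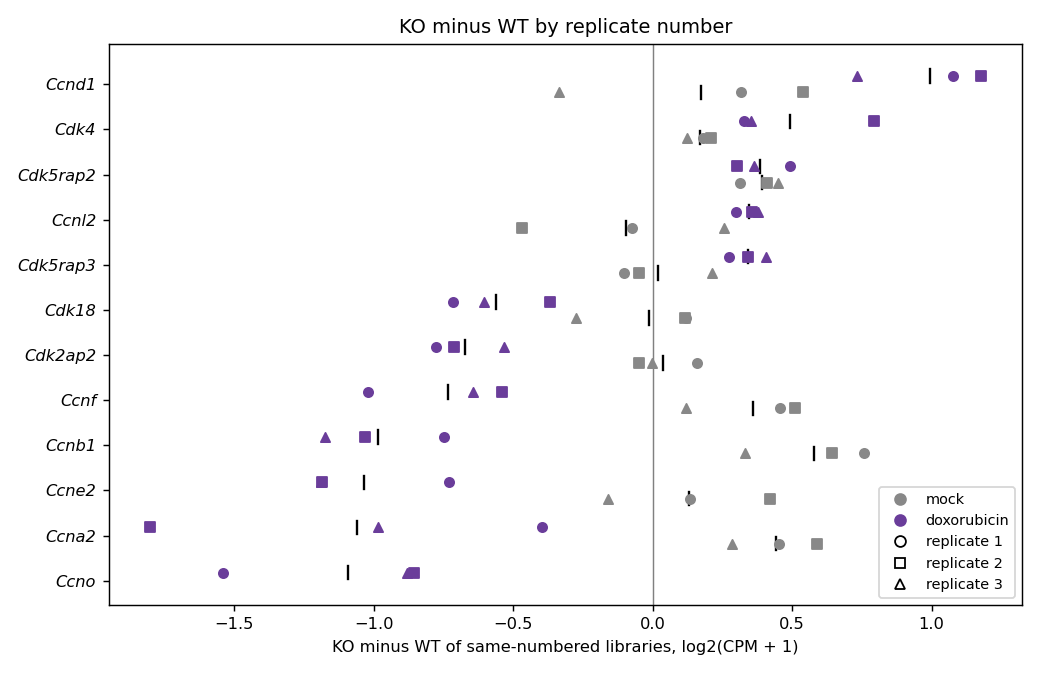
KO minus WT of same-numbered libraries, on the log2(CPM + 1) scale, for the 12 members called with the replicate block after doxorubicin. Purple marks are doxorubicin and grey marks mock (circle, square and triangle for replicates 1, 2 and 3), and short lines are means. The 3 purple marks of each gene lie on one side of 0, which the choice by the blocked fit favours. For Ccna2, Ccnb1 and Ccnf the 3 grey marks lie on the other side. Ccno has no grey marks.

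The genes that act on cyclins and CDKs gave no call without the block in KO against WT. With the block 0.563% of all genes were higher and 0.357% lower in mock, and 11.8% and 13.6% after doxorubicin. In that fit Cdkn1a was lower (-0.85, adjusted p = 0.0223) and Cdkn2c, which encodes p18, higher (0.64, adjusted p = 0.0489) in mock, 2 of 6 inhibitors. After doxorubicin Cdkn1c was lower (-0.74, adjusted p = 0.0044), and Cdkn2a and Cdkn2b, the genes of the INK4 locus, were higher (0.55 and 0.47, adjusted p = 0.0101 and 0.0156). Of the RB, E2F and DREAM list, 0 of 18 were called in mock and 1 of 17 higher and 4 lower after doxorubicin with the block, led by E2f7, a repressor of E2F targets (-1.38), Mybl2 (-0.75) and E2f1 (-0.48). Of the cyclin destruction genes 10 of 24 were higher and 2 lower with the block, with Cdc20 at -0.82 and the subunit genes Anapc4 and Cdc23 of the anaphase-promoting complex at 0.53 and 0.46. The partners of the transcriptional CDKs gave 2 higher and 2 lower of 17, with Med12l at -0.93, Gtf2h2 at 0.42 and Polr2a at -0.36, and the genes of CDK phosphorylation 0 of 7. The proliferation markers gave 0 higher and 6 lower of 17, with a median of -0.44 beside 0.03 over all genes. Aurka (-1.31), Plk1 (-1.06) and Mki67 (-0.88) led. Aurka was at 6.32, 56.6 and 9.24 CPM in WT doxorubicin and 5.06, 10.7 and 3.01 CPM in KO doxorubicin. WT replicate 2 thus weighs on its difference, and the markers were not fitted without that library. In mock 3 of 18 were higher with the block, Tpx2 (0.47), Bub1b (0.44) and Top2a (0.44). The part of the proliferation markers in the cyclin values was not tested.

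Whether doxorubicin acted differently in the genotypes was tested as the interaction, the KO response minus the WT response. No member of 39 passed, without or with the block, nor did any of the 10292 genes (0%). At an unadjusted p under 0.05 there were 5 members, against 468 genes or 4.55%. They were Ccnb1 (-1.56, SE 0.50), Ccnf (-1.10, SE 0.45), Ccnd1 (0.82, SE 0.32), Cdk19 (-0.73, SE 0.22) and Cdk2ap2 (-0.71, SE 0.31), with adjusted p of 0.922 each and 0.196 to 0.29 with the block. Calls made in one genotype and not in the other, such as those of Ccnb1, Ccnd1 and Cdk19, are therefore not shown to differ between them.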

How the data were processed

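RNA was sequenced from 12 libraries, 3 for each of 4 groups, and groups were taken from the labels. The authors deposited 2 tables of CPM (gene counts scaled to library size), 1 for each treatment. Build NCBIM37, HTSeq, edgeR and TopHat2 2.0.6 are listed, with no role or order, per the submitters' processing notes. The CPM were whole multiples of 1 read within 0.001 of a read in 100% of values, and the listed genes held 99.2% to 99.6% of each library. Library totals of 14327048 to 20511907 reads make 1 read worth 0.0488 to 0.0698 CPM.

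The tests were run in limma 3.58.1 (R 4.3.3) on log2(CPM + 1) with a trend in the prior variance, without a block, with Benjamini-Hochberg adjustment over all genes of a table and a threshold of 0.05. KO was compared with WT within a treatment, and the 12 libraries were fitted together over the 10292 genes in both tables for doxorubicin against mock and for the interaction. Fold changes on this scale understate those of low genes. The 2 tables are set side by side on the deposited CPM scale. The script was tested on simulated data.

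The labels do not say what a replicate number marks. Deviations of same-numbered libraries from their group means correlated across genes at 0.71 to 0.85 (WT and KO mock), 0.67 to 0.80 (WT and KO doxorubicin), 0.39 to 0.52 (WT mock and doxorubicin) and 0.43 to 0.73 (KO), and those of other numbers at -0.06 or below, so the numbers were taken as pairs and values with the number as a block are given where they change a call. The members and gene lists were chosen with earlier results of these data known. Values in every library are given for the main cyclins and kinases of the cycle, for members called in KO against WT, and for the 5 largest differences of each role, and of each pathway list the 3 largest called. Promoters are RefSeq sequences of GRCm38.p6, used for sequence only. Alternatives were another pseudocount (0.25), a minimum mean of 5 CPM, quantile normalization, median centring, the block, fits of 1 genotype and leaving out libraries.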

Additional observations from a re-analysis of the deposited data

Results flagged for a closer look

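For 6 members the KO library was on one side of the WT library in all 3 mock pairs and on the other side in all 3 doxorubicin pairs. The share of all genes with such a switch was not computed, so the count is not shown to be particular to the members. The KO minus WT difference after doxorubicin less that in mock was -1.50 for Ccna2, -1.56 for Ccnb1, -1.10 for Ccnf, -0.73 for Cdk19, -0.40 for Cdk2ap1 and -0.27 for Ccnc, on the log2(CPM + 1) scale. Each was above WT in mock and below it after doxorubicin. The limma test of this difference passed for none of them (adjusted p of 0.922, 0.922, 0.922, 0.922, 0.922 and 0.922, and 0.225, 0.196, 0.212, 0.221, 0.342 and 0.413 with the replicate block).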

How the results depend on the processing

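With the replicate block, KO against WT after doxorubicin gave 5 members higher and 7 lower (1 to 5 and 6 to 7 when a pair was left out), where the fit without it gave 0, and in mock 0 and 0 (0 to 9 and 0 to 2 when a pair was left out). The share of all genes called was not computed for the fits with a pair left out. The block gave 13 lower members for doxorubicin in KO, against 8 without it. In mock, Cdk2ap2 reversed with quantile normalization (-0.0289) and median centring (-0.026) from a difference of 0.036. Leaving out a library in mock moved KO against WT across 0 for Ccnd1 (-0.0067 to 0.4553, and -0.0085 to 0.4283 with the block and a pair left out), Ccne2 (-0.1971 to 0.3145, and -0.014 to 0.2774) and Cdk2ap2 (-0.1203 to 0.1394, and -0.0263 to 0.0785). The counts for doxorubicin against mock stayed within 1.5 times with a pseudocount of 0.25, a minimum mean of 5 CPM, and fits of 1 genotype. The planned edgeR fit of recovered reads was not run. The cause of these changes was not tested. With 3 libraries a group, a difference that did not pass is not shown to be absent.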
